A study of Arabidopsis thaliana with 4 samples.

Results

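CONSTANS (CO), FLOWERING LOCUS T (FT) and the CYCLING DOF FACTOR genes CDF1, CDF2, CDF3 and CDF5 form the core of the photoperiodic flowering pathway of Arabidopsis thaliana. These 6 genes, of 27444 protein-coding nuclear genes, were chosen as photoperiod genes with earlier results of the same peak list known. Each was examined for all summits inside it or within 6000 bp of either end, which gave 9 of the 7470 summits in the list. A summit is the position of highest ChIP coverage in a peak. The chromatin came from 4-day-old dark-grown seedlings, wild type (Col) or with the genotype given as TCP4 overexpression (labelled mTCP4), and each genotype had 1 anti-Myc ChIP library and 1 input library. The promoter, the tag construct and the number of plant lines were not given in the sources used here. With 1 library per group the values have no replicate error, and no test between genotypes was made.

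In this pathway the CO protein, a B-box transcription factor, activates FT in leaf veins at the end of long days, and the FT protein moves to the shoot apex as the flowering signal. The CDF proteins are DOF zinc finger repressors of CO and FT, and they are degraded in the afternoon by a complex of GIGANTEA (GI) and the F-box protein FKF1. TCP4 is a CIN-type TCP transcription factor, a class known for leaf development and cell differentiation. The series was made to find potential TCP4 targets in seedlings.

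Of the 6 genes, 4 had at least 1 summit inside or within 6000 bp, against 48.4% of all protein-coding genes. CO had 4 such summits, CDF5 had 3, and CDF1 and CDF2 had 1 each. FT and CDF3 had none. The strongest summit lay 952 bp beyond the higher-coordinate end of CDF5 and had a fold enrichment of 11.98, where fold enrichment is the authors' linear ratio of ChIP coverage to the control level at the summit. At CO and CDF1 the highest folds were 4.41 and 4.25, and at CDF2 the only fold was 2.40. Because the genes were chosen from this list, these counts and folds are a description with no test. The gene table used gives no strand, so ends are called lower- or higher-coordinate ends, and upstream and downstream were not told apart.

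**Figure D1:**
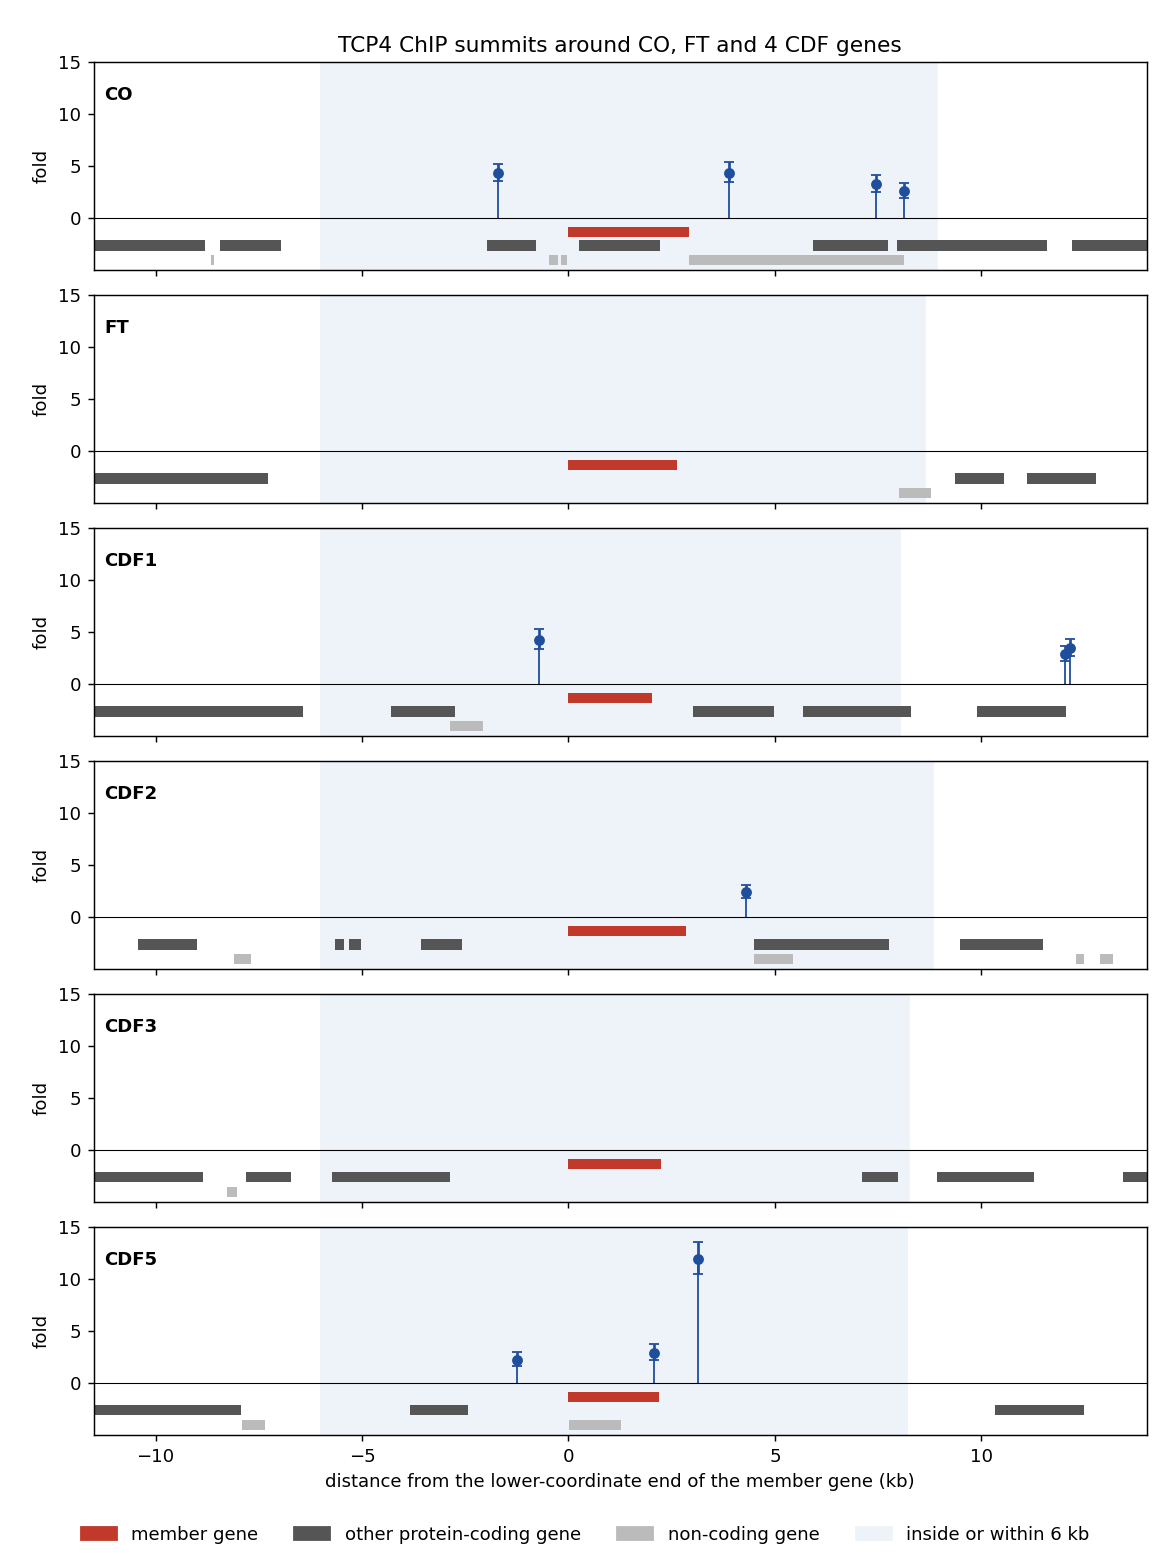
Fold enrichment of each summit (points, with exact 95% Poisson intervals of the fragment number as bars) against its distance in kb from the lower-coordinate end of each of the 6 genes, with genes drawn to scale below the zero line. CO has 4 summits on both of its sides, CDF5 has 3 with the highest at 11.98, CDF1 and CDF2 have 1 each inside the shaded window, and the windows of FT and CDF3 are empty.

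CO (AT5G15840, chromosome 5), the activator of FT, had its highest summit at position 5174047 of build TAIR10, 962 bp outside its higher-coordinate end. There 82 fragments gave a pileup of 60.42 over a control level of 12.9, a fold of 4.41 (95% interval of counting error 3.52 to 5.46). The position falls inside AT5G15845, a long non-coding RNA gene of 5211 bp. The nearest other protein-coding gene end was 1665 bp away, that of AT5G15843, which lies within the span of CO. On the far side of the summit the next protein-coding gene, COL1, was 2044 bp away. Of the 4 CO summits it alone was nearer to CO than to any other protein-coding gene.

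The other CO summits lay in neighbouring genes. The summit at position 5168451, 1711 bp beyond the lower-coordinate end, had 105 fragments and a fold of 4.35 (3.57 to 5.26), and it was inside bZIP3, a gene of a basic leucine zipper protein. The summit at position 5177621, 4536 bp beyond the higher-coordinate end, was inside COL1, the CONSTANS-like gene next to CO. It had 62 fragments and a fold of 3.29 (2.54 to 4.19). The summit at position 5178282, 5197 bp away, was inside both AT5G15853 and PCME and had 55 fragments and a fold of 2.60 (1.97 to 3.36). This summit and the COL1 summit also fell inside the long non-coding RNA gene AT5G15845, as did the highest CO summit. No summit was listed inside CO itself. The interval of the highest summit overlapped those of the bZIP3 and COL1 summits and did not overlap that of the weakest.

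Having 4 or more summits inside or within 6000 bp was true of 6.21% of protein-coding genes, and 93.8% had fewer than CO. Its highest fold was nearer the middle, above that of 57.2% of the genes with a summit at this distance. Each of the 4 summits belonged to a peak of its own in the authors' numbering, with 1 summit per peak.

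CDF5 (AT1G69570, chromosome 1), a repressor of CO and FT, carried the strongest enrichment of the 6 genes. Its main summit, at position 26164667, had 236 fragments and a pileup of 173.91 over a control level of 13.6, against a median of 86 fragments over all summits. The fold of 11.98 (10.5 to 13.6) ranked 18 among the 7470 summits, with 99.8% of summits lower. The −log10 q in the deposited list was 120.1 there, against a median of 14.2. No other gene was close on this side. The next protein-coding gene, AT1G69580, started 8141 bp beyond the end of CDF5.

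Both other CDF5 summits were weaker. One, position 26163591, was within CDF5 and 124 bp short of its higher-coordinate end. It had 58 fragments, and its fold was 2.92 (2.23 to 3.75). The other, position 26160274, lay 1254 bp outside the lower-coordinate end. It had 44 fragments, its fold was 2.26 (1.66 to 3.01), and it was slightly nearer to MYB105, a MYB transcription factor gene, at 1180 bp. The strongest summit was 1076 bp from the summit inside the gene and 4.11 times its fold, and the intervals did not overlap. A long non-coding RNA gene of 1241 bp, AT1G69572, overlaps CDF5 in the annotation. None of the 3 summits fell in it, and the nearest was 800 bp away.

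CDF5 was the only one of the 6 genes with a summit inside it, which 6.75% of protein-coding genes had. A summit with a fold above 10 inside or within 6000 bp was found for 1 of the 6 genes, CDF5, and for 0.896% of protein-coding genes. The fold of the CDF5 summit was 2.71 times that of the highest CO summit, 2.82 times that of the CDF1 summit and 4.99 times that of the CDF2 summit, and its interval overlapped none of the other 8.

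CDF1 (AT5G62430, chromosome 5), a CO repressor that FKF1 degrades, had 1 summit in its window. It was at position 25068376, 717 bp outside the lower-coordinate end, in the gap to AT5G62420, whose end was 2040 bp from the summit. It overlapped no annotated gene. With 79 fragments over a control level of 12.9 its fold was 4.25 (3.38 to 5.28), and its interval overlapped those of the CO summits at 962 and 1711 bp. The CO summit at 962 bp and the CDF1 summit were the only 2 of the 9 at the lowest control level of the list, which 18.3% of all summits had.

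CDF2 (AT5G39660, chromosome 5), a CDF repressor that acts redundantly with CDF1, had 1 weak summit. This summit, position 15883000, lay 1463 bp outside the higher-coordinate end. It had 54 fragments, and its fold was 2.40 (1.82 to 3.11). Only 10.03% of all summits had a lower fold, and AT5G39670 was nearer to it, at 179 bp. Its −log10 q was 4.85.

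**Figure D2:**
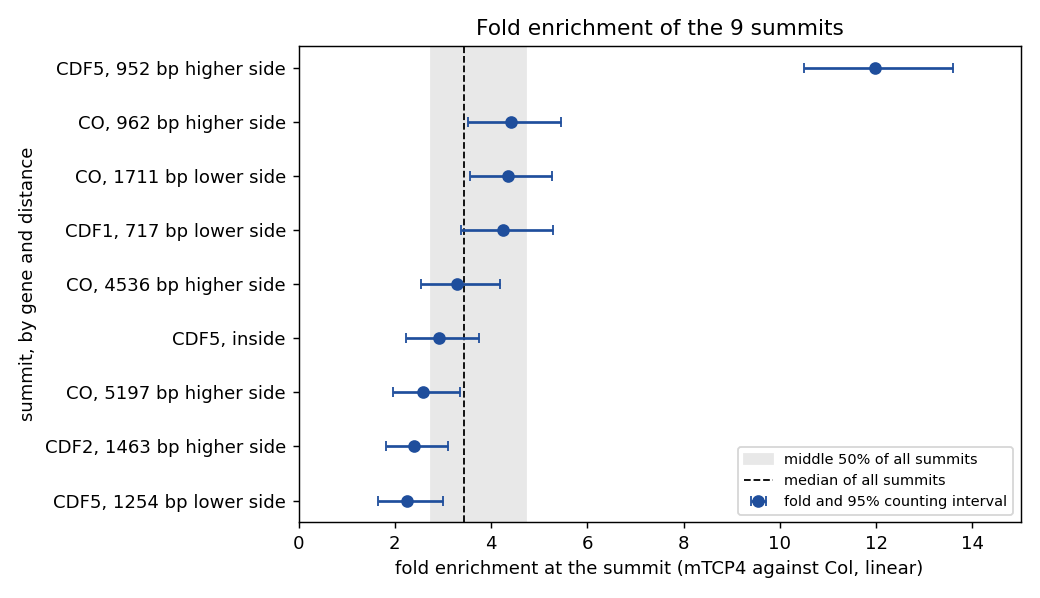
Fold enrichment (linear, x axis) of the 9 summits, named by gene and distance, with exact 95% intervals of counting error. The CDF5 summit at 11.98 stands alone, the next 3 lie between 4.25 and 4.41 inside the grey band of the middle 50% of all summits, and the lowest 3 lie between 2.26 and 2.60, below that band.

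The median of the 9 folds was 3.29, with extremes of 2.26 and 11.98. Over all summits in the list the median fold was 3.43 and the quartiles were 2.76 and 4.72. Only the CDF5 summit was above the upper quartile, and 3 were below the lower one. Leaving the strongest summit aside, the intervals overlapped in 19 of the 28 pairs among the other 8. Overlap of intervals is not a test of a difference, so this count does not tell how many of these folds differ. The highest folds of CO and CDF1, 4.41 and 4.25, each lay inside the interval of the other, so their order lay within counting error.

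The same 4 genes had a summit inside or within 3000 bp, against 32.8% of protein-coding genes, and inside or within 10000 bp, against 62.7%. Inside or within 1000 bp, CO, CDF1 and CDF5 had summits, 3 of 6 against 19.7% of protein-coding genes. These genes had 4 summits at that distance. All 4 lay between 1000 bp outside and 200 bp inside a gene end. For summits outside a gene this follows from the distance limit, so only the summit inside CDF5, 124 bp from an end, could have missed it. By genes, 3 of 6 had a summit in this end window, against 17.4% of protein-coding genes. The member summit farthest inside the 6000 bp limit was the CO summit at 5197 bp with a fold of 2.60, and the nearest one beyond it lay 9996 bp from CDF1, inside MYB96, with a fold of 2.92.

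FT (AT1G65480, chromosome 1), which encodes the mobile flowering signal, had no listed summit within 10000 bp, as had CDF3. Its nearest summit, position 24349329, lay 15330 bp beyond the higher-coordinate end and 70 bp from AT1G65486, and its fold was 3.09 (2.36 to 3.98). On the other side the nearest summit, position 24292207, was 39166 bp away and 165 bp from PP2-A5, and its fold was 5.31 (4.33 to 6.45). The stretch without a listed summit around FT was thus 57.1 kb long. The nearest summit was closer for 74.8% of protein-coding genes. Within 100 kb of FT there were 8 summits, the fewest among the 6 genes at that distance, against a median of 14 and quartiles of 9 and 19 over all protein-coding genes.

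CDF3 (AT3G47500, chromosome 3), a CDF gene also known for its part in stress tolerance, had its nearest summit 17068 bp away (position 17523192, fold 3.26, interval 2.53 to 4.14). The summit-free stretch around it measured 44.5 kb, and 77.5% of protein-coding genes had a nearer summit. Unlike FT it did not lie in a region with few summits, since 18 were listed within 100 kb. The list holds only positions that passed the authors' calling threshold, so weaker enrichment at FT or CDF3 cannot be judged from it.

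**Figure D3:**
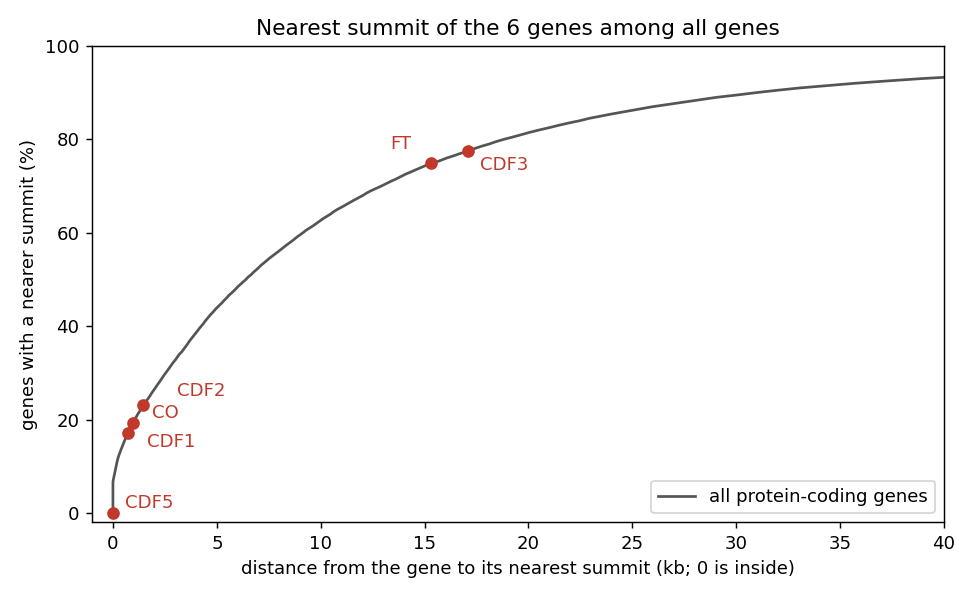
Share of protein-coding genes with a nearer summit (y axis, percent) against the distance from a gene to its nearest summit (x axis, kb, 0 meaning inside). CDF5 is at 0, CDF1, CO and CDF2 lie between 717 and 1463 bp, and FT and CDF3 lie at 15330 and 17068 bp.

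The number of summits within 100 kb also differed among the genes. CDF5 had 33, more than 97.6% of protein-coding genes, and its strongest summit was also the highest in that region. CDF1 had 25, CDF2 had 17 and CO had 15. The highest fold within 100 kb was 8.55 for CO, 9.59 for CDF1, 10.6 for CDF2 and 10.1 for CDF3, and for CO, CDF1 and CDF2 this was above the highest within 6000 bp. At FT the highest within 100 kb was 5.37.

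Other genes of the photoperiod pathway were examined in a list of 60 arranged by role. The list was written with earlier results of these data known. Its shares may partly reflect that choice and are a description with no test. Of the 60 genes, 41 (68.3%) had a summit inside or within 6000 bp, against 48.4% of protein-coding genes. Inside or within 1000 bp, 25 (41.7%) had one, against 19.7%. The median of the highest fold among the 41 was 5.59, and it was 4.03 among all protein-coding genes with a summit at this distance. A fold above 10 inside or within 6000 bp occurred at 6 of the 60, against 0.896% of protein-coding genes, and 17 had 3 or more summits, which 12.8% of protein-coding genes had. The 41 genes held 102 distinct summits, 3 of which were also summits of CO, all shared with its neighbour COL1.

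The counts by role that follow rest on 4 to 10 genes each and are to be read against the same shares of all protein-coding genes, 48.4% within 6000 bp and 19.7% within 1000 bp. Among the factors that remove CDF proteins, 3 of 4 had a summit within 6000 bp. GI, the scaffold of the complex, had one 899 bp away with a fold of 5.77 (5.08 to 6.52). FKF1, the blue-light F-box protein, had none within 1000 bp and, named here after its value was seen, a fold of 9.87 (8.60 to 11.3) at 2950 bp. The clock genes that set the daily rhythm of the CDF genes had summits in 5 of 6 cases. PRR9, a pseudo-response regulator, had a fold of 10.1 (8.82 to 11.4) at 145 bp. The morning MYB factor CCA1 had one of 4.82 at 141 bp, and its partner LHY one of 3.21 at 165 bp. Farther out, a value added after it was seen, CCA1 had a fold of 7.69 (6.60 to 8.90) at 3142 bp.

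Genes that act on CO came next. Of the FLOWERING BHLH activators of CO transcription, 2 of 4 had a summit within 6000 bp, and FBH3 had one at 809 bp with a fold of 6.53. Of the photoreceptors and ubiquitin ligase components that set CO protein stability, 7 of 10 had one. The highest within 1000 bp were at SPA4 (5.05) and SPA1 (3.85), partners of the COP1 ligase, and inside PHYA (3.28), the phytochrome of far-red sensing. Of the partners of the CO protein, 5 of 8 had a summit within 6000 bp. BBX30, a small B-box protein that binds CO, had a fold of 7.69 inside the gene, NF-YB2, a subunit of the NF-Y complex, 6.47 at 351 bp, and BBX19, another B-box protein, 4.67 at 870 bp. The CO-like genes had summits in 4 of 5 cases, with folds of at most 3.65 within 1000 bp, at COL5. Farther out, a value added after it was seen, COL5 had a fold of 6.40 (5.44 to 7.48) at 2872 bp.

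Genes that act on or with FT were listed in 3 roles. Of the repressors of FT, 7 of 10 had a summit within 6000 bp, with the highest folds within 1000 bp at TEM1 (7.89) and TEM2 (4.08), RAV-type repressors, and at the MADS factor SVP (5.05). Farther out, and named after their values were seen, TEM1 had a fold of 10.4 (9.06 to 11.8) at 3109 bp and TEM2 one of 10.8 (9.47 to 12.2) at 2547 bp. Of the FT family and the transport protein FTIP1, 4 of 6 had one within 6000 bp and 0 of 6 within 1000 bp, where 48.4% and 19.7% of protein-coding genes had one. TSF, the closest relative of FT, had its highest fold, 4.04 (3.19 to 5.05), at 1506 bp, and was named after its value was seen. Of the FT partners and outputs, 4 of 7 had a summit within 6000 bp, with folds within 1000 bp of 10.5 at the floral identity gene AP1 and 6.16 at the flowering integrator SOC1. FUL, an AP1-related MADS gene named after its value was seen, had a fold of 12.02 (10.5 to 13.7) at 2374 bp. CAL, a further MADS gene close to AP1 and also named after its value was seen, had a fold of 11.0 (9.54 to 12.6) at 2056 bp. The rest of this role, FD, FDP and LFY, had no summit within 6000 bp. Their nearest summits lay 10023, 9819 and 10330 bp away, and they too were named after their values were seen. In all, 7 genes of the list had a highest fold within 6000 bp whose interval overlapped that of CDF5. They were FUL, CAL, TEM2, AP1, TEM1, PRR9 and FKF1.

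In all, 19 of the 60 genes of the list had no summit inside or within 6000 bp, against 14161 of the 27444 protein-coding genes. The first 10 in list order were LKP2, FBH1, FBH2, COP1, SPA2, HOS1, NF-YC4, NF-YC9, BBX31 and TOE2.

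**Figure D4:**
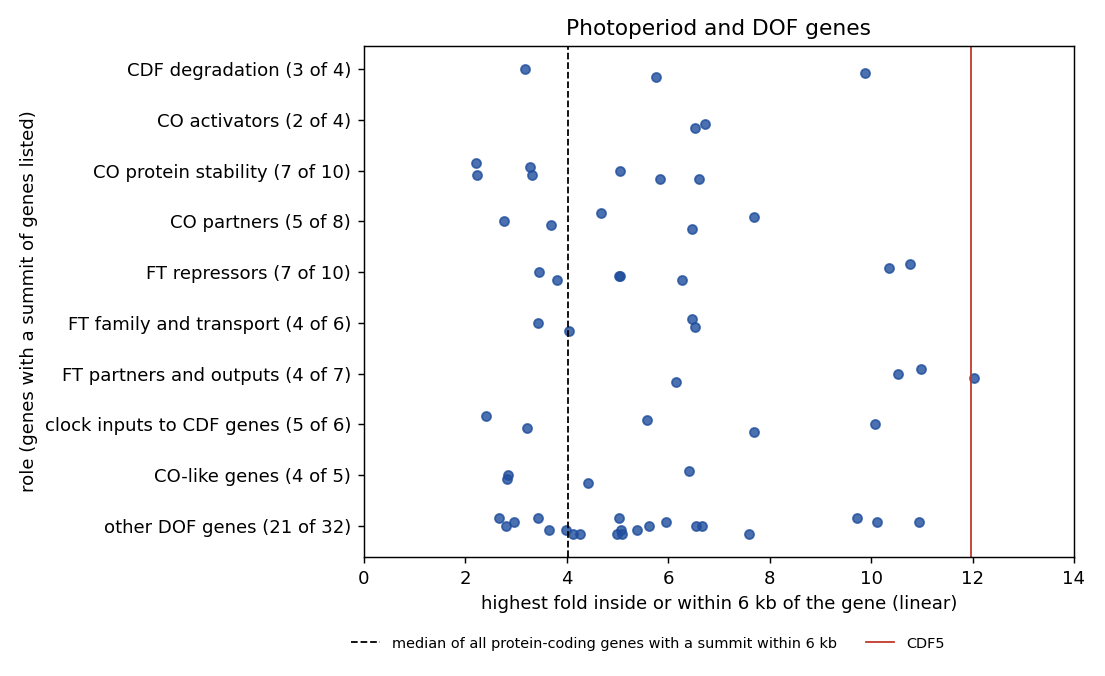
Highest fold inside or within 6 kb (x axis, linear) of each photoperiod gene by role and of the DOF genes other than the 4 CDF members. The label of each row gives how many of the listed genes had a summit. The dashed line marks the median of all protein-coding genes with a summit, 4.03, and the red line the CDF5 value of 11.98, which only FUL, at 12.02, exceeds.

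The CDF genes belong to the plant DOF zinc finger family, listed here with 36 loci from general knowledge of the family. Of the 32 loci other than the 4 CDF members, 21 (65.6%) had a summit inside or within 6000 bp and 8 (25%) inside or within 1000 bp, against 48.4% and 19.7% of protein-coding genes. The median of their highest fold was 5.07. None of the 32 exceeded CDF5. The 6 highest were DOF2 (10.9 at 1592 bp), DOF1 (10.1 at 153 bp), DOF6 (9.73 at 877 bp), DOF4.7 (7.60 at 3559 bp), TMO6 (6.66 at 1196 bp), a gene downstream of the auxin response factor MONOPTEROS, and OBP3 (6.55 at 1565 bp). The intervals of DOF2, DOF1 and DOF6 overlapped that of CDF5, and that of DOF4.7 did not. Like CDF3, 11 of the 32 had no summit within 6000 bp. Among these were the remaining CDF-type loci of the list, AT2G34140 (CDF4), AT1G26790 and AT1G29160 (COG1), which were named by rule whatever their values. Their nearest summits lay 10967, 9341 and 30146 bp away, in that order.

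With a single peak list, likeness between genes could be described only by the number of summits within 6000 bp and the highest fold. By these measures the genes of both lists nearest to CO were AT5G66940 of the DOF list (4 summits, highest fold 4.12), the FT repressor SMZ (4 summits, 5.03) and AT4G24060 of the DOF list (4 summits, 3.43). FT shared its lack of summits with 31 of the 96 genes in the lists, CDF3 among them, so no gene was nearest to it. Of all 27444 protein-coding genes, 14161 had no summit at this distance.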

How the data were processed

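ChIP-seq was carried out on 4 libraries, compared in 1 deposited peak list, mTCP4 against Col. Bowtie 0.12.9, MACS2 2.1.1 and build TAIR10 are named in the submitters' processing notes. Neither the calling threshold nor the use of the inputs is stated there. Per the file headers, the deposited pileup is a signal (coverage at the summit), the fold a linear ratio to the control level, and p and q are given as −log10. All but 1 interval of the 7470 are 10000 bp wide, so summits were used as positions, as deposited.

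The control level at a summit was computed as pileup plus 1, divided by fold, minus 1, since MACS2 adds a pseudocount of 1. Poisson p-values were recomputed with the pileup rounded down and with it rounded to the nearest whole number. For each summit the closer of these was kept, and it matched the deposited −log10 value within 0.05 for 100% of summits. Pileups were whole multiples of 0.737 within 0.01, taken as 1 fragment. Exact 95% Poisson intervals of the fragment number hold the control level fixed and cover counting error only. Fragments per summit ran from 43 to 355, and library totals were not analysed here.

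Genes and symbols came from a RefSeq table of TAIR10.1, matched by locus for all 6 genes and both lists. CDF5 is a name from the description of the gene set. Summits were least often inside genes (29.6%) with no shift among shifts of up to 1000 bp, which checks the shared coordinates. No sequence was used here, so planned motif counts were not made.

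The 6 genes and the lists were chosen with earlier results of these data known. Text genes were the 6, their neighbours at summits, per role up to 3 listed genes with the highest fold within 1000 bp, the first 10 without a summit, and 6 DOF genes plus 3 further DOF loci fixed by name. Genes outside this rule are marked as named after their values were seen. Counts used Python 3.11.15, pandas 2.3.3 and scipy 1.17.1, and gene assignment was tested on simulated summits.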

Additional observations from a re-analysis of the deposited data

How the results depend on the processing

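The number of summits at the 6 genes, 9 as reported, was 4 with the upper 50% of summits by fold, 4 within 1000 bp and 4 with each summit given to its nearest protein-coding gene. It was 7 to 10 with q at or below 1e-05, within 3000 or 10000 bp, with 1 summit per numbered peak and with control levels above the lowest. The number of genes with a summit was 3 or 4 in every alternative. It is to be read against a changing share of all protein-coding genes, from 18.0% with nearest genes to 62.7% within 10000 bp. FT and CDF3 had none in any alternative, which was fixed in advance. Their nearest summits, 15330 and 17068 bp away, lie outside every window used, and no alternative adds summits. The summits at gene ends fell from 4 to 2 with control levels above the lowest, where CDF1 had none. CDF2 had none with q at or below 1e-05, with the upper 50%, within 1000 bp and with nearest genes. Within 1000 bp the share of all protein-coding genes with a summit fell from 48.4% to 19.7%. Photoperiod genes with a summit fell from 41 to 25 of 60 within 1000 bp. Other DOF genes fell from 21 to 8 of 32 within 1000 bp and to 13 with nearest genes, where 18.0% of protein-coding genes had one. These alternatives drop or reassign summits and leave each fold as deposited, so they do not test the highest folds. The only one that changed was that of CO, 4.35 with control levels above the lowest. Without the pseudocount the 9 folds were 1.04 to 1.07 times as high, each within its interval. No paired analysis was possible because each group has 1 library and the labels give no replicate numbers. The number of fragments per summit left 19 of the 28 pairs of weaker summits with overlapping intervals.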
